A study of Mus musculus with 4 samples.

Results

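The genes described here encode the neuropeptides oxytocin and vasopressin and their brain receptors: Oxt (ENSMUSG00000027301), Avp (ENSMUSG00000037727), Oxtr (ENSMUSG00000049112) and Avpr1a (ENSMUSG00000020123). They were taken by symbol from the feature list of the deposited tables, where they are 4 of 19465 features, and they were chosen by their levels in the 4 sections and between the diet groups, with earlier results of these data known; their values in that comparison are therefore given without a test. The sections came from male, wild-type C57BL/6J pups at postnatal day 21. Their dams ate either a control diet with 2 mg/kg folic acid (FA; the MF group) or a high diet with 20 mg/kg FA (the HF group), from 2 weeks before mating until the end of lactation. Each group had 2 sections, 1 per formalin-fixed, paraffin-embedded brain block, and each coronal section was read on a Visium array, whose spots sample small areas that can each hold several cells, at centres 100 µm apart. The study calls the sections of a group biological replicates, and the sources used here do not say whether their pups shared a litter.

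After spots with fewer than 500 unique molecular identifiers (UMIs) or 250 genes were removed, 3197 to 3598 spots remained per section, with a median of 9286 to 23543.5 UMIs per spot. Total depth lay between 34983708 and 90098381 UMIs, and MF replicate 1 was the deepest section. Levels are given as CPM, the UMIs of a gene for every 1000000 UMIs of all genes in the same spots, and their intervals are 95% Poisson intervals that cover counting error only. In a spot, fewer expressing cells and less RNA per cell cannot be told apart. Levels were compared between places and sections for 1 gene at a time, never between genes, since each gene was counted through its own probes.

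HF replicate 2 stood apart from the other sections in its hypothalamus. The summed level of 8 measured genes of the tuberal and lateral hypothalamus was 3883, 2848 and 2017 CPM in the hypothalamus spots of the 2 MF sections and HF replicate 1, and 99.2 CPM in HF replicate 2. Pmch, which encodes melanin-concentrating hormone of the lateral hypothalamus, had 62019, 21084 and 11217 UMIs in those sections and 30 in HF replicate 2. Hcrt, the orexin gene of the same territory, had 6887, 3427 and 2231 UMIs against 10. Not every gene of the list followed: Fezf1, a transcription factor of the ventromedial hypothalamus, was 5.68, 3.15 and 1.13 CPM in the hypothalamus spots of those sections and 7.0 in HF replicate 2. Npy, which other brain regions also express, was 196 to 229 CPM over the whole of those sections and 210 over HF replicate 2. That whole-section level does not show its hypothalamic level, and in the hypothalamus spots Npy was lower in HF than in MF. Sim1, a transcription factor required for the paraventricular and supraoptic nuclei, ran the other way, with 80, 57 and 49 UMIs against 272. These lists differ between hypothalamic levels along the front-to-back axis, so for HF replicate 2 the level of the section and the diet cannot be told apart, and each peptide value below is given by section.

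Oxytocin and vasopressin are short peptides cut from precursors that also yield a neurophysin carrier protein. Their best-known sources are the large neurosecretory neurons of the paraventricular and supraoptic nuclei, which send axons to the posterior pituitary, and smaller neurons that send axons within the brain; vasopressin is also made in the suprachiasmatic nucleus. The oxytocin receptor and the V1a vasopressin receptor couple to Gq proteins and phospholipase C, and both are known for their roles in social behaviour.

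Both peptide genes lie side by side on chromosome 2. In the GRCm38 annotation Oxt covers chr2:130576173-130577054 on the plus strand and Avp covers chr2:130580620-130582554 on the minus strand, so that 3565 bp separate their ends and they are transcribed towards each other. Oxtr lies at chr6:112473683-112489943 on the minus strand and Avpr1a at chr10:122448499-122453452 on the plus strand. The 250 bases before the RefSeq start of each peptide gene are shown because both genes were highest in the same block of spots of HF replicate 2, below. RefSeq sets both starts upstream of those of the annotation above, by more bases for Avp than for Oxt, as the coordinates below show. The windows are RefSeq sequence of GRCm38.p6, written 5′ to 3′ on the strand of the gene, from chr2:130575919-130576168 (plus) for Oxt and chr2:130582589-130582838 (minus) for Avp. Capitals mark TGACC on either strand in the Oxt window, the letters at the core of many nuclear receptor sites, and CACGTG, an E-box that reads the same on both strands, in the Avp window.
Oxt: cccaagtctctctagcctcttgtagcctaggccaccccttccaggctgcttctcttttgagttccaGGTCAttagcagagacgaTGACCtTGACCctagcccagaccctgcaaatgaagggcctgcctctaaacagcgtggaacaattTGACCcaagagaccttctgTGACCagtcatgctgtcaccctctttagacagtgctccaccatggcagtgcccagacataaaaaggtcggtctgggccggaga
Avp: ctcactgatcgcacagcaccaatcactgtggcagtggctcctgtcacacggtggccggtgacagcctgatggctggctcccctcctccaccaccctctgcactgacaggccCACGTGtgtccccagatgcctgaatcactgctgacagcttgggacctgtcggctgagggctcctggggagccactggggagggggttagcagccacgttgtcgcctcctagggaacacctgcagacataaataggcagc

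The Oxt window held 5 TGACC matches, 4 on the gene's own strand and 1 on the opposite strand, where it reads GGTCA, and none overlapped another. Of 32851 windows of the same length, 35.2% held at least 1 TGACC and 14, or 0.0426%, held at least 5. The Avp window held 1 CACGTG and no TGACC, and 6.02% of all windows held a CACGTG. The windows of the receptor genes differed from these in letters, with 1 TGACC and 1 CACGTG before Oxtr and neither before Avpr1a. A match is a description of the letters alone.

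Oxt, the oxytocin precursor, had 63 and 174 UMIs in the 2 MF sections, 42 in HF replicate 1 and 27105 in HF replicate 2. Values of 4 sections are listed in this order here, MF before HF and replicate 1 before replicate 2. Avp, the vasopressin precursor, had 256, 112, 396 and 19924 UMIs. HF replicate 2 was thus far above the other 3 sections for both peptides. As levels, Oxt was 0.699, 4.10, 1.2 and 638 CPM and Avp was 2.84, 2.64, 11.3 and 469 CPM. By level, HF replicate 1 lay between the MF sections for Oxt and above both for Avp. The maps of peptide UMIs show the 2 genes in the same block of spots in HF replicate 2 and in few, scattered spots elsewhere.

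**Figure D1:**
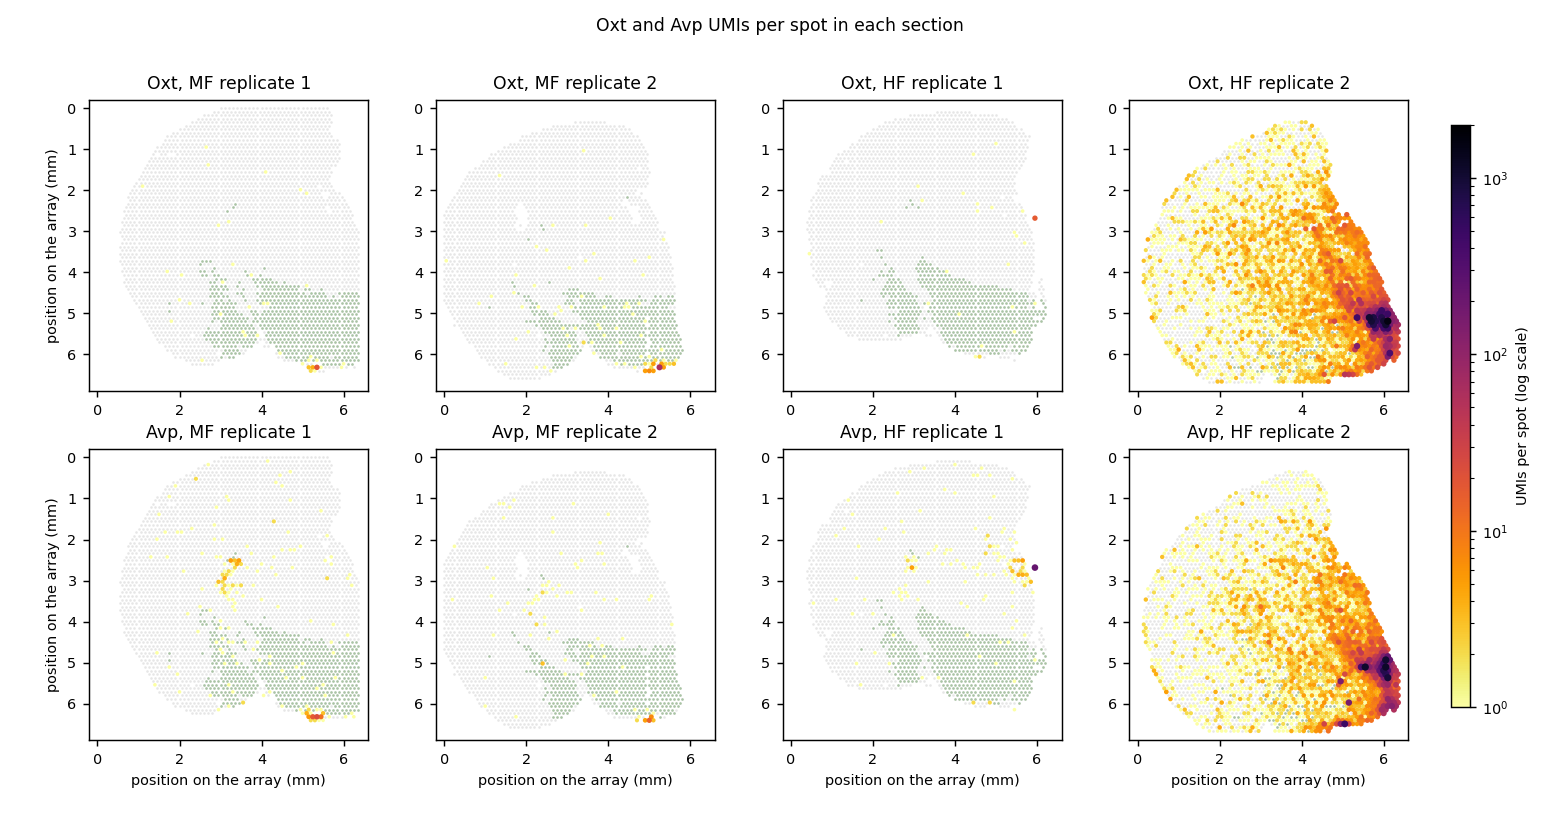
UMIs of Oxt (top row) and Avp (bottom row) in every kept spot of the 4 sections, at array positions in mm, with colour on a log scale, grey spots at 0 and green-grey hypothalamus spots at 0. HF replicate 2 has a dense block of up to 1541 Oxt and 1170 Avp UMIs per spot inside the hypothalamus and lower counts over most of the section, whereas the other 3 sections have few spots with a UMI.

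In the hypothalamus, the spots assigned to it by marker genes of which the peptides were no part, Oxt was 0.909 CPM (0.470 to 1.59) and 14.8 (12.2 to 17.8) in the MF sections, 3.26 (2.07 to 4.90) in HF replicate 1 and 2833 (2795 to 2872) in HF replicate 2. Avp there was 2.73 CPM (1.91 to 3.78), 1.97 (1.10 to 3.24), 33.6 (29.5 to 38.2) and 2072 (2039 to 2105). The intervals of HF replicate 2 did not come near those of any other section for either gene. HF replicate 2 was also the highest section in 17 of 17 areas for Oxt and in 17 of 17 areas for Avp. In the cortex, which is not known as a source of oxytocin, Oxt was 1.33, 3.20, 0.443 and 63 CPM. Avp in the cortex was 3.24, 3.35, 2.99 and 45 CPM. The plot of peptide levels by area shows this order of the sections in each area.

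**Figure D2:**
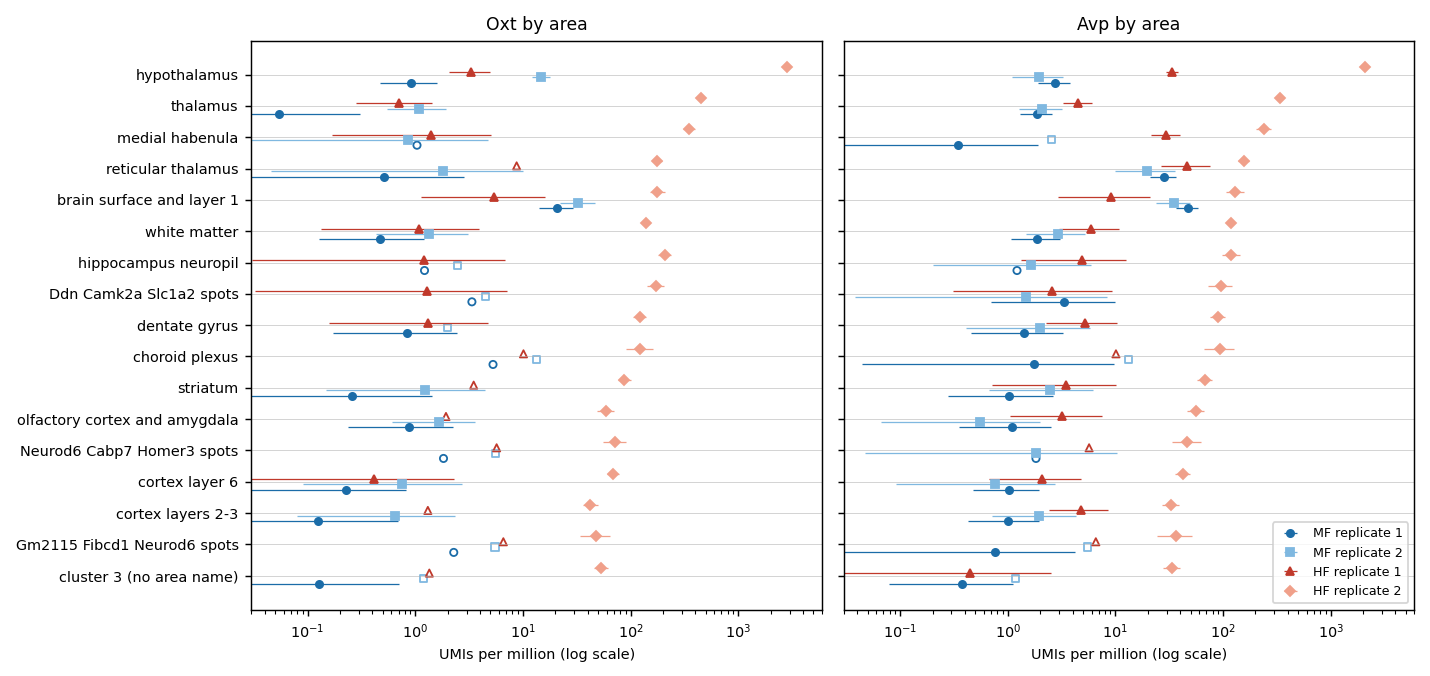
Oxt and Avp in 17 areas, in CPM on a log axis, with 1 point per section and bars for 95% Poisson intervals; open points mark sections with 0 UMIs, drawn at the level of 3 UMIs. The points of HF replicate 2 lie above those of the other 3 sections in each area, and its hypothalamus is highest at 2833 CPM of Oxt and 2072 CPM of Avp.

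The share of spots with a peptide UMI was likewise highest in HF replicate 2, also at equal depth. At least 1 Oxt UMI was found in 1.06%, 2.29%, 0.782% and 70.2% of spots as counted, and in 0.223%, 0.777%, 0.335% and 48.0% after spots were thinned to 5000 UMIs. Spots with fewer UMIs were left out of the thinned shares, which kept 3589, 3216, 2687 and 3218 spots, so most were lost in HF replicate 1. Avp was found in 4.53%, 2.44%, 4.32% and 63.8% of spots as counted, and in 1.23%, 0.902%, 2.31% and 43.1% after thinning. White matter, which holds few neuronal cell bodies, served as the reference. There Oxt was found in 1.2%, 1.5%, 0.810% and 73.9% of spots, at median depths of 25220, 11300, 7046 and 11444 UMIs. The share over the whole section was thus at or below that in white matter in MF replicate 1, HF replicate 1 and HF replicate 2, so these shares are not read as shares of spots that express Oxt.

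The UMIs of both peptides were packed into few spots. In HF replicate 2, 20 spots held 50% of the section's Oxt UMIs and 24 spots held 50% of its Avp UMIs, and the 1% of spots with most UMIs held 58.7% and 55.1%. In HF replicate 1 a single spot held 56.8% of the Avp UMIs. Oxtr was spread far more evenly, with 150 to 292 spots needed for 50% of its UMIs and 11.8% to 17.1% of them in the top 1% of spots. Moran's I, the deposited score of spatial clustering in which 0 stands for no clustering, was 0.130, 0.152, 0.0109 and 0.673 for Oxt and 0.182, 0.0826, 0.0881 and 0.650 for Avp. In HF replicate 2 Oxt ranked 7 and Avp 13 of 18100 features by this score, against ranks of 970 and 1260 at best in the other sections.

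In HF replicate 2 the level of both peptides fell with distance from their maximum. Rings were drawn around the spot where the mean level of a spot and its touching neighbours was highest. Oxt was 45964 CPM within 150 µm of it, 10372 at 150 to 250 µm, 11076 at 250 to 500 µm, 1494 at 500 to 1000 µm and 354 at 1000 to 2000 µm. Beyond 3000 µm Oxt was still 83.5 CPM (79.8 to 87.2), and 56.7% of those 1985 spots held a UMI. Avp ran from 19978 CPM within 150 µm to 1400 at 500 to 1000 µm and 64.1 (61.0 to 67.3) beyond 3000 µm. In the other sections, Oxt beyond 3000 µm was 0.217, 0.762 and 0.533 CPM. Even the farthest ring of HF replicate 2 was thus above the whole hypothalamus of the other 3 sections for Oxt.

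**Figure D3:**
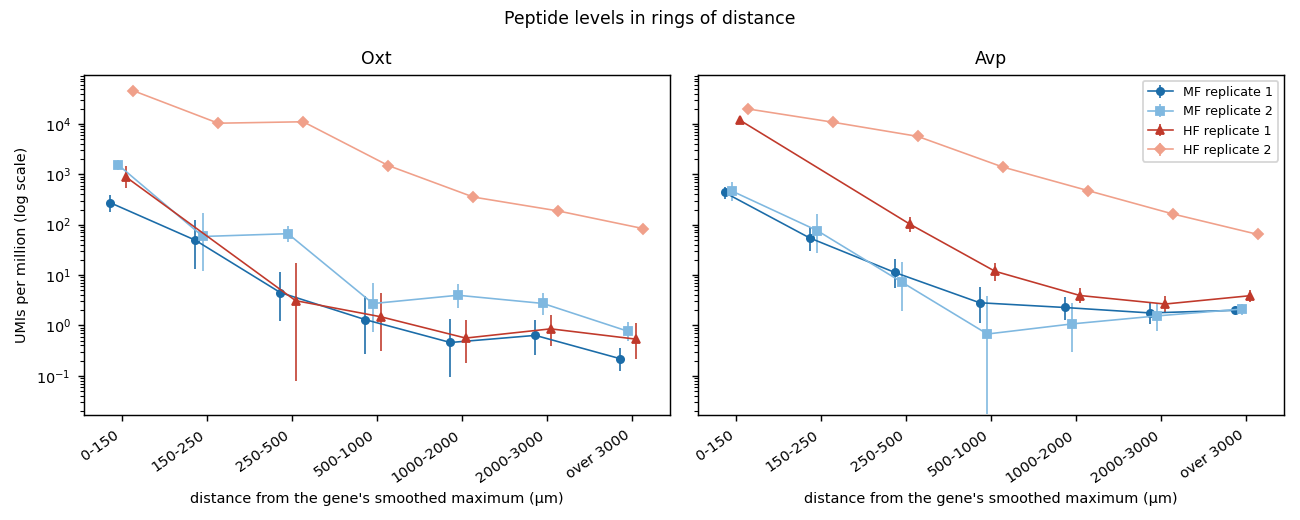
Oxt and Avp in rings of distance (µm) from the smoothed maximum of each gene, in CPM on a log axis, 1 line per section with 95% Poisson intervals. Both peptides fall with distance in HF replicate 2 and stay above 60 CPM beyond 3000 µm; HF replicate 1 has no spot at 150 to 250 µm.

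Low counts far from a rich source were not particular to the peptides. Pmch, the most abundant gene of the tuberal list, had a UMI in 96.6% of the spots beyond 3000 µm from its own maximum in MF replicate 1, at 138 CPM. In MF replicate 2 and HF replicate 1 the same share was 66.1% at 114 CPM and 28.5% at 41 CPM. Hcrt, which was less abundant, was found beyond 3000 µm in 31.8%, 8.79% and 3.35% of spots. Whether peptide UMIs far from the hypothalamus in HF replicate 2 came from RNA that moved across the slide or from cells at those places was not tested. Within HF replicate 2, Oxt outside the hypothalamus fell from 286 CPM within 250 µm of the nearest hypothalamus spot to 67.7 CPM beyond 2000 µm. Avp fell from 222 to 39.8 CPM over the same bands.

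The main block of HF replicate 2 was compact. The largest group of touching spots among the 1% richest in Oxt had 28 spots, covered 550 by 520 µm and held 14666 Oxt UMIs, or 54.1% of the section's. The largest Avp group had 20 spots, with 7860 Avp UMIs or 39.4%. Of the 33 richest spots of each gene, 20 were shared, which is 60.6% of each list. A smaller pair of touching spots lay 1724 µm from the main Avp group, at the lower edge of the section, and held 596 Avp but 54 Oxt UMIs. One spot held 158 Avp and 0 Oxt UMIs, and another held 452 Oxt and 24 Avp UMIs. The neurophysin parts of the 2 genes are closely alike in sequence, and how the probes tell them apart is not given in the sources used here; these spots show that high counts of 1 gene occurred with few or none of the other.

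**Figure D4:**
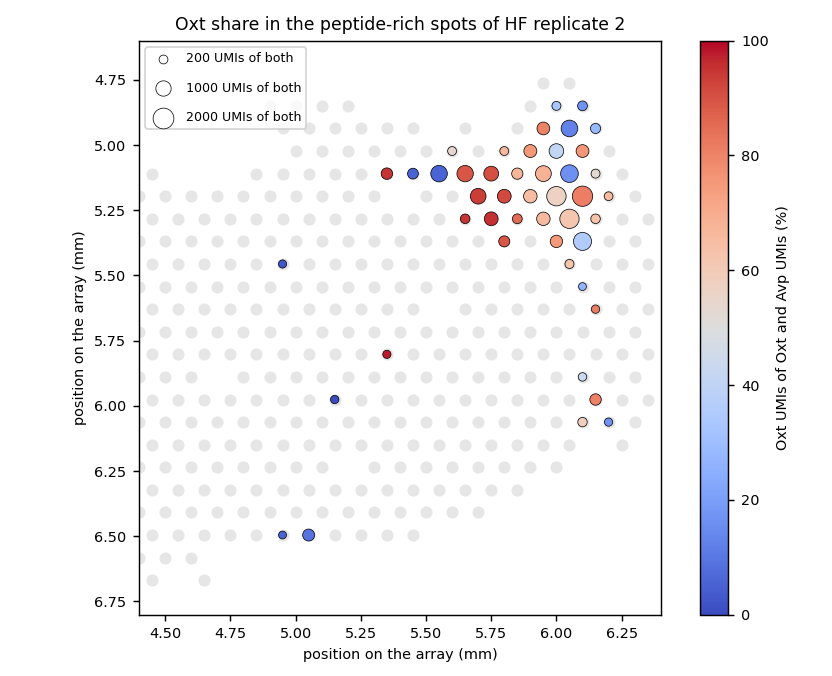
The 46 spots of HF replicate 2 among the 1% richest in Oxt or in Avp, at array positions in mm, coloured by Oxt as a percentage of Oxt plus Avp UMIs and sized by the sum, over the other hypothalamus spots in grey. The percentage runs from 0 to 97.9, with spots of both kinds inside the main block.

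The 2 peptides were mixed in unequal parts from spot to spot. Over these 46 spots Oxt made up 0% to 97.9% of the peptide UMIs, with a median of 64.2%, against 57.6% over the section. It was over 80% in 14 spots, under 20% in 10 and between in 22. In the 35 of them that made up the main block, 11 were over 80% and 5 under 20%, and 4 of 74 touching pairs joined a spot of each kind. The spot with most Oxt held 1541 Oxt and 361 Avp UMIs, and a spot touching it was the one with most Avp, 1170 beside 224 Oxt. From the top to the bottom array row of that rectangle, the Oxt percentage was 23.4, 34.7, 61.0, 52.1, 75.7, 73.1, 53.9 and 62.2, so that the topmost rows held relatively more Avp. The top row held 2 spots and the bottom row 1, and the percentage did not rise steadily.

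The 7 listed genes known to regulate these neurons were compared between peptide-rich and other spots. The share of all features with intervals apart was not computed, so each gene is described by its own values. The comparison is between the 46 peptide-rich spots and the other 514 hypothalamus spots of 1 section, so it has no replicate and no test. Sim1 was 85.5 CPM (67.6 to 106.7) against 13.8 (11.1 to 17). Otp, a homeobox gene that specifies neuroendocrine neurons, was 262 (230 to 297) against 73.7 (67.2 to 80.6). Pou3f2, a POU factor that acts downstream of Sim1, was 140 (117 to 167) against 33.6 (29.3 to 38.4), and Caprin2, an RNA-binding protein described on vasopressin mRNA, was 39.4 (27.6 to 54.6) against 8.29 (6.23 to 10.8). Nhlh2, a helix-loop-helix factor of hypothalamic neurons, was 30.7 (20.4 to 44.3) against 9.98 (7.70 to 12.7), and Arnt2, a partner of Sim1 found across the brain, was 237 (206 to 270.4) against 186 (176 to 197). These intervals did not overlap, whereas those of Creb3l1, a transcription factor that acts on Avp, did: 17.5 (10.0 to 28.5) against 10.1 (7.83 to 12.9).

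The 11 listed peptides and enzymes known from peptide neurons did not all go the same way. Crh, corticotropin-releasing hormone, was 35.1 CPM (24.0 to 49.5) in the peptide-rich spots against 8.13 (6.09 to 10.6), and Pdyn, the dynorphin precursor that vasopressin neurons also make, was 25.2 (16 to 37.8) against 5.99 (4.26 to 8.18). Trh was 176 (150 to 206) against 92.6 (85.3 to 100.2), and Th, the first enzyme of dopamine synthesis, was 49.3 (36.0 to 66.0) against 16.1 (13.2 to 19.5). Gal, the galanin gene, was 79.99 (62.7 to 100.6) against 37.8 (33.2 to 42.8), and Cartpt, another peptide gene, 106 (86.2 to 130) against 45.1 (40.1 to 50.6). Penk, the enkephalin precursor, was lower, at 93.1 (74.4 to 115) against 151 (141 to 160). Vip, Cck, Nos1 and Adcyap1 were 0.861 to 1.12 times the level of the other hypothalamus spots. Npy, of the tuberal list, was also lower, at 53.7 (39.7 to 71.0) against 89.2 (82.1 to 96.7). Among the listed genes for peptide handling, Pcsk1 was 3.72 times, Pam 1.87 times and Pcsk1n 1.33 times the level of the other hypothalamus spots. Cpe was 1.12 times it, at 1107 (1039 to 1177) against 984 (960 to 1008). Pcsk2 and Scg5 were 1.04 to 1.10 times it, Cd38 was 1.60 times and Lnpep 0.738 times, all with overlapping intervals. In the ventral pair of Avp spots, Gal had 17 UMIs or 423 CPM, against 42.9 CPM over all hypothalamus spots.

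Oxtr was not seen to be higher where the peptides were rich. It had 5 UMIs in the 46 peptide-rich spots, 5.48 CPM (1.78 to 12.8), against 12.7 (10.1 to 15.8) in the other hypothalamus spots, and the intervals overlapped. Avpr1a, with 3 UMIs in all hypothalamus spots of the section, was too rare to compare.

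In the MF sections the richest spot of each peptide lay elsewhere, at the lower edge of the brain. Within 1000 µm of the smoothed maximum of each gene lay 60.3% and 68.4% of the Oxt UMIs but 33.2% and 31.3% of the Avp UMIs, and 53.1% and 55.4% of the Avp UMIs lay beyond 3000 µm. The smoothed maximum of Oxt was in the area that held marker genes of the brain surface and layer 1 in both MF sections, and the richest spot of MF replicate 1 held 20 Oxt and 22 Avp UMIs. In MF replicate 2 the richest spot held 65 Oxt and 0 Avp UMIs, of 3786 in all. Brain surface spots had the highest Oxt level of any area in both MF sections and in HF replicate 1, at 20.6, 32.7 and 5.44 CPM, the last from 3 UMIs. Avp in that area was 46.8, 34.8 and 9.07 CPM, the highest of any area in both MF sections. Some pituitary and arcuate genes were found at the same place. Within 500 µm of the Oxt maximum of MF replicate 1, 36 spots held 55.6% of its Oxt UMIs, 81.8% of those of Cga, the shared subunit of the glycoprotein hormones, and 65.8% of those of Agrp, a feeding peptide of the arcuate nucleus, but 0 of 80 Sim1 UMIs. In MF replicate 2, 41 spots held 66.1% of the Oxt, 31.8% of the Cga and 46.1% of the Agrp UMIs. Gh, the growth hormone gene, did not share this place: 3 of its 515 UMIs in MF replicate 1 lay within 500 µm, and it was at 0 in MF replicate 2, as was Prl, the prolactin gene. Around the maximum of HF replicate 2, 2.60% of the spots held 32.0% of its 272 Sim1 UMIs, while Cga, with 3 UMIs in the section, was too rare to compare. The summed pituitary list was 11.3, 4.88, 6.37 and 0.588 CPM over the sections, with 0, 2, 0 and 3 of its 8 genes at 0. The part of pituitary cells in the peptide UMIs of the MF sections was not tested.

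HF replicate 1 owed most of its Avp to 1 spot. That spot held 225 of the section's 396 Avp UMIs and 17 of its 42 Oxt UMIs. It was assigned to the hypothalamus but stood alone: its nearest kept spot was 265 µm away, its nearest other hypothalamus spot 1833 µm away, and 15 of the 22 spots within 500 µm were medial habenula. The 16 hypothalamus markers summed to 3492 CPM in it, between 9138 CPM in the other hypothalamus spots and 1957 CPM in the spots outside. Other genes, named after their values were seen, were high in it as well: Ttr, the transthyretin of choroid plexus, at 11162 CPM against 283 in the other hypothalamus spots, and Vwf, of blood vessels, at 1217 against 40.7. Without this spot the hypothalamus of HF replicate 1 had 1.71 CPM of Avp instead of 33.6 and 0.853 CPM of Oxt instead of 3.26, and the whole section had 4.89 CPM of Avp instead of 11.3. Of the 20 richest Avp spots of that section, 10 were in the medial habenula, where Avp was 29.8 CPM against 0.346 and 0 in the MF sections. The habenula lay beside the lone spot, around which Avp fell with distance. It was 102 CPM at 250 to 500 µm from that spot, 11.9 at 500 to 1000 µm and 3.92 at 1000 to 2000 µm. Whether the habenula UMIs came from cells there or from RNA that moved from the lone spot was not tested.

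The reticular thalamus, a shell of inhibitory neurons around the thalamus, held low Avp counts in the 2 MF sections and HF replicate 1. Avp was found in 57.1%, 22.5% and 28.2% of reticular thalamus spots of the 2 MF sections and HF replicate 1, against 4.68%, 3.30% and 7.05% of spots in the thalamus beside it. Median depths were 39318, 13722.5 and 8116 UMIs in the reticular thalamus and 26913, 15608 and 16076 in the thalamus, so the share was higher at a lower depth in the last 2 pairs. As a level, Avp was 28.1, 19.8 and 46.6 CPM in the reticular thalamus against 1.86, 2.07 and 4.50 in the thalamus. In MF replicate 1 this area held 21.5% of the section's Avp in 1.36% of its spots. Oxt did not share this pattern, with 1, 1 and 0 UMIs there. In HF replicate 2 the order was turned, with 156 CPM in the reticular thalamus and 339 in the thalamus. Avp was found there in 91.5% of reticular thalamus spots and 89.7% of thalamus spots. The area had 106 spots in HF replicate 2 against 49, 40 and 39 in the other sections. Whether these are like sets of spots was not tested.

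Oxtr, the oxytocin receptor, had 872, 438, 404 and 421 UMIs, or 9.68, 10.3, 11.5 and 9.90 CPM, so that the sections lay close together whatever their peptide content. It was found in 20.2%, 11.7%, 11% and 11.2% of spots as counted and in 5.13%, 5.35%, 5.51% and 4.63% after thinning to 5000 UMIs. The highest count in any spot was 6, and spots with at least 3 UMIs numbered 23, 4, 3 and 5. Its level over areas was tested with edgeR's quasi-likelihood test on sums per section and area, each of 17 areas against the mean of the others, with section as a block and Benjamini-Hochberg adjustment over 12901 features. The areas came from clusters of spots computed without the listed genes, Oxtr included.

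Oxtr was highest in the olfactory cortex and amygdala, a region known for oxytocin binding, at 17.8, 22.0, 27.7 and 18.0 CPM in the 4 sections. Its mean there was 21.4 ± 4.6 (SD, n = 4), and the log2 ratio to the other areas was 1.38 (SE 0.13, adjusted p = 3.02e-15), where 14.9% of all features were called higher. Spots led by Neurod6, Cabp7 and Homer3, genes of hippocampal pyramidal cells, had 19.9 ± 2.81 CPM and a ratio of 1.49 (SE 0.21, adjusted p = 9.09e-09, 21.4% of features called higher). The striatum had 17.9 ± 2.87 CPM and a ratio of 1.07 (SE 0.15, adjusted p = 1.80e-08, 12.2% called higher). These top 3 areas were not apart from each other, since the next in order was lower in 2 of 4 and 3 of 4 sections only. The striatum was above the hypothalamus in 4 of 4 sections.

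**Figure D5:**
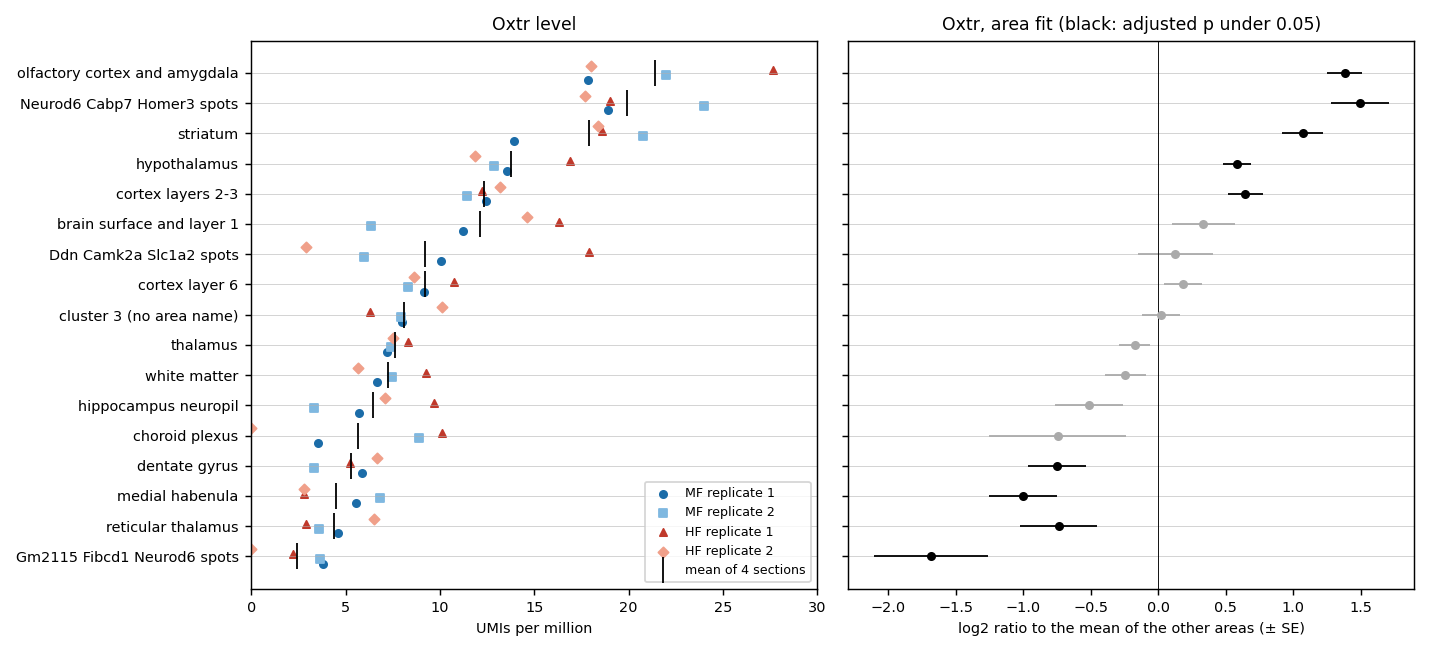
Left, Oxtr in CPM per area, 1 point per section and a bar at the mean; right, the log2 ratio of each area to the mean of the other areas with its SE, black where called and grey where not. Olfactory cortex and amygdala, the Neurod6 Cabp7 Homer3 spots and striatum lie highest, with means of 21.4, 19.9 and 17.9 CPM.

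The hypothalamus itself held 13.6, 12.8, 16.9 and 11.8 CPM of Oxtr, with a mean of 13.8 ± 2.18 and a log2 ratio of 0.59 (SE 0.10, adjusted p = 9.18e-07), beside 18.7% of features called higher there. Cortex layers 2-3 had 12.3 ± 0.719 CPM and a ratio of 0.65 (SE 0.13, adjusted p = 2.03e-05, 18.2% called higher), and the hypothalamus was above it in 3 of 4 sections. In HF replicate 1, 108 of the 625 hypothalamus spots formed a second block apart from the main one, with 0 Oxt and 2 Avp UMIs and 21.7 CPM of Oxtr against 16.2 in that main block. Lower than the other areas were spots led by Gm2115, Fibcd1 and Neurod6, a hippocampal group with 2.41 ± 1.77 CPM from 8 UMIs in all and a ratio of -1.68 (SE 0.42, adjusted p = 0.000601, 21.5% of features called lower). The medial habenula had 4.47 ± 2.03 CPM and a ratio of -1.0 (SE 0.25, adjusted p = 0.000642, 17.2% called lower). The dentate gyrus, the entry station of the hippocampus, had 5.28 ± 1.43 CPM and a ratio of -0.75 (SE 0.22, adjusted p = 0.00291, 16.8% called lower). The reticular thalamus, where Avp was found in many spots, had 4.41 ± 1.56 CPM of Oxtr and a ratio of -0.74 (SE 0.29, adjusted p = 0.0364, 14.1% called lower). In all, 5 areas were called higher and 4 lower, and 8 did not pass the test. After thinning to 5000 UMIs, 4 areas stayed called, all higher: olfactory cortex and amygdala, striatum, hypothalamus and cortex layers 2-3.

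As counted, the hippocampus was therefore uneven for Oxtr, with the Neurod6 Cabp7 Homer3 spots high and the dentate gyrus and the Gm2115 Fibcd1 Neurod6 spots low. In the high spots Oxtr was 18.9, 24.0, 19.0 and 17.7 CPM, and in the dentate gyrus 5.89, 3.33, 5.2 and 6.68 CPM, with no overlap. The median depth of the Neurod6 Cabp7 Homer3 spots, 20030.5 to 51416 UMIs, was close to that of the dentate gyrus, 20509 to 39405 UMIs.

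Avpr1a, the V1a receptor, was near the limit of detection, with 25, 8, 7 and 5 UMIs and never more than 1 in a spot. That is 0.277 CPM (0.180 to 0.410), 0.189 (0.0814 to 0.372), 0.200 (0.0805 to 0.412) and 0.118 (0.0382 to 0.275), so the intervals of the 4 sections overlapped. It was found in 0.695%, 0.241%, 0.219% and 0.150% of spots as counted and in 0.0836%, 0.0622%, 0.0744% and 0.0622% after thinning. The hypothalamus held 22 of the 45 UMIs, 10, 4, 5 and 3 by section, and was the area with the highest mean, 0.599 ± 0.164 CPM (n = 4). By section it ranked 3, 2, 1 and 1 among the areas. Those ahead of it in the MF sections had at most 3 UMIs over all sections. Avpr1a stayed below the expression filter of the area test and so had no result in it. With no filter, it was called higher in the hypothalamus, at a log2 ratio of 2.35 (SE 0.57, adjusted p = 0.000166), beside 17.6% of 18966 features called higher there. This call rests on the 45 UMIs, and some of the other areas, such as the striatum, held 0 UMIs in every section. The other vasopressin receptors were rarer still: Avpr1b, the pituitary receptor, had 7, 1, 1 and 6 UMIs and Avpr2, the kidney receptor, 1, 0, 0 and 0.

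HF was compared with MF on sums per section, with edgeR's quasi-likelihood test over all features. Since the 4 genes were chosen with this comparison known, their values are a description without a test. Over the whole section, the log2 fold change of HF over MF was 7.26 (SE 2.42) for Oxt, 6.45 (SE 1.66) for Avp and 0.09 (SE 0.12) for Oxtr, while Avpr1a was below the filter. In this fit 0% of the 14971 features tested were called, and 1020 features had an unadjusted p under 0.05. The peptide values rested on HF replicate 2: without it, Oxt was -0.82 and Avp 2.01. Some alternatives called a peptide. These calls are not read as tests, since the genes were chosen with this comparison known. The median over all features was 0.00.

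The same limit holds in the larger areas, where the 4 genes are again described by their log2 fold changes and not by calls. In the hypothalamus, where 0% of 13482 features were called, Oxt was 7.65 (SE 2.45), Avp 8.75 (SE 1.89) and Oxtr 0.10 (SE 0.20). Without HF replicate 2, Oxt there was -1.05 and Avp 3.75, the latter with the lone spot of HF replicate 1 described above. In the cortex, where 0.0291% were called, Oxt was 4.11, Avp 2.96 and Oxtr 0.11, against -2.14 and -0.13 for the peptides without HF replicate 2. In the hippocampus, where 0.178% were called, Avp was 5.47 and Oxtr 0.12, and Oxt was below the filter. In the thalamus, where 0% were called, Oxt was 8.99, Avp 6.44 and Oxtr 0.12. Oxtr thus stayed within 0.12 of 0 in each, less than its SE.

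In the hypothalamus 0 of 13482 features were called. The absence of calls among the other listed genes there therefore does not show that they were unchanged. Of the 10 listed genes for other receptors and peptide handling, 8 were tested in the hypothalamus and 0 called, with a median log2 fold change of -0.02. Of 10 Gq signalling genes, which act after both receptors, 10 were tested and 0 called, with a median of -0.09. All 7 regulators of peptide neurons were above 0 in the hypothalamus, with a median of 0.31, but 0 were called, and Sim1 over the whole section was 0.888, 1.34, 1.4 and 6.4 CPM, high in HF replicate 2 alone. The 11 co-expressed peptides and enzymes had a median of -0.23 and 0 called. All 8 tested genes of the tuberal and lateral hypothalamus were below 0, with a median of -1.58 and 0 called. Of the listed genes over the 5 comparisons, 1 was called: Pmch in the hippocampus, at -3.35, beside 0.178% of all features called there. This call is not read as a test, since the lists were chosen with earlier results of these data known. Pmch had 30 UMIs over the whole of HF replicate 2, so section level and diet cannot be told apart for it.

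Over the 68 sums of 17 areas in 4 sections, the genes whose levels were most like each member were ranked by Pearson's r of log2(CPM + 1), among 12903 features. For Oxt they were Avp (r = 0.90), Stk38 (0.83), Srrm1 (0.71), Ndufb8 (0.70) and Pabpn1 (0.68). For Avp, Oxt came first, with Stk38 (0.81), Ndufb8 (0.66) and Srrm1 (0.65) among the 5. For Oxtr they were Cyp26b1 (0.64), which is 1 of the markers that named the olfactory cortex and amygdala, Jsrp1 (0.64), Map3k5 (0.64), Snx7 (0.63) and Arl16 (0.63), and for Avpr1a Optc, Alkbh7, Pgr15l, Nelfe and Hmx3 (0.44 to 0.48). Sums of 1 section share a library. Without HF replicate 2, over 51 sums, 0 of the 5 genes stayed for Oxt and 0 for Avp, 2 for Oxtr and 3 for Avpr1a. The gene most like Oxt was then Cga (0.84), with Agrp among the 5 (0.77), and the gene most like Avp was Tjp1 (0.70).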

How the data were processed

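The authors made Visium libraries for formalin-fixed tissue, in which probe pairs stand for genes, and aligned the probe reads to mm10 with Space Ranger 2.0.0; per the submitters' processing notes Seurat was used downstream. The deposited matrices hold raw UMI counts per spot and feature, and these counts entered all tests. The deposited enrichment tables hold Moran's I, a score given by the authors' pipeline, and feature totals that equalled those of the matrices. No column belonged to another sample.

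Kept spots had 500 UMIs and 250 genes or more, the limits of the study's methods. Array positions were turned into µm with a spacing of 100 µm. Spots were clustered jointly (2000 variable genes without the listed ones, 30 principal components, 20 neighbours, Leiden resolution 1) into 23 clusters, and clusters were named from marker lists by at least 3 markers among 50 leading genes. Clusters without a name are called by 3 leading genes, or cluster 3 by its number. The larger areas were named with pooled markers, a choice made after the clusters were seen. Counts were summed per section and area and fitted with edgeR 4.0.16 in R 4.3.3 (TMM, filterByExpr, quasi-likelihood), and called at an adjusted p under 0.05 and at least 1.2-fold. DESeq2 1.42.0, other filters and scalings, thinned spots, a coarser clustering and the leaving out of each section were the alternatives. The scripts were tested on simulated data.

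The 4 genes and all lists were chosen with earlier results of these data known. Genes named are the 4 members, listed genes that were called or had at least 100 UMIs in a section where a member is described, and the 5 genes most like each member, of which 1 is not reported here; others are named with a remark. Of the listed genes, Nms, Kiss1 and Hba-a1 were not among the features. A count of 0 is given as below a floor of 3 UMIs. Intervals and floors cover counting error only, since array barcodes mark places and not cells; the sections share 2649 to 3110 barcodes by design of the array. Promoter windows came from RefSeq for GRCm38.p6, the build of the files. Replicate numbers did not pair the sections: the correlation of deviations of same-numbered sections was -0.16 over whole sections.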

Additional observations from a re-analysis of the deposited data

How the results depend on the processing

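The number of features called between HF and MF depended on the method. It was 0, 4, 22, 0 and 0 in the whole section, cortex, hippocampus, thalamus and hypothalamus. It became 23, 20, 25, 5 and 6 with DESeq2 and 5, 173, 180, 141 and 23 with no filter on low counts. Thinned spots gave 14 in the cortex and 1 in the thalamus, and a Leiden resolution of 0.5, whose cortex lacks its deep layers, gave 40 in the cortex and 2 in the hippocampus. Leaving out each section in turn gave 0 to 1166, 1 to 554, 0 to 791, 3 to 1377 and 0 to 881 calls, and 0 to 91 among the listed genes; a lone section is then assumed to vary like the other group. The cause was not tested.

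With the replicate number as a block, 0, 26, 29, 47 and 8 features were called, although the numbers share no stated origin. The correlation of same-numbered sections was between -0.18 and 0.04. The crossed pairing, chosen after seeing the data, gave 11, 7, 131, 34 and 0 calls.

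The log2 fold changes of the peptides turned with 1 section. Leaving out each section in turn gave -0.82 to 8.83 for Oxt and 2.01 to 7.40 for Avp over whole sections, -2.14 to 5.06 and -0.13 to 3.80 in the cortex, 0.69 to 11.76 and 1.2 to 7.45 in the thalamus, -1.05 to 10.58 and 3.75 to 9.71 in the hypothalamus, and 1.90 to 6.35 for Avp in the hippocampus; the lowest value of each was the one without HF replicate 2. Whether a peptide was called also depended on the setting. These calls are not read as tests, since the genes were chosen with this comparison known. For Oxtr the same ranges were -0.0051 to 0.19 over whole sections, 0.0057 to 0.19 in the cortex, 0.042 to 0.18 in the thalamus, -0.17 to 0.32 in the hypothalamus and 0.017 to 0.33 in the hippocampus. Thinning turned Oxtr to -0.065 in the whole section, -0.021 in the cortex and -0.14 in the thalamus, and resolution 0.5 gave -0.092 in the hippocampus and 0.34 in the hypothalamus.

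Of the 9 areas called for Oxtr, 4 remained after thinning and 8 to 9 when 1 section was left out; the reticular thalamus was the one lost, and also with DESeq2 (adjusted p = 0.0505) and at resolution 0.5 (adjusted p = 0.0586). The uncalled ratio of cluster 3, spots without an area name, turned to -0.019 with DESeq2 and -0.022 with library size alone and ran from -0.15 without HF replicate 2 to 0.16 when single sections were left out. That of the Ddn Camk2a Slc1a2 spots ran from -0.33 without HF replicate 1 to 0.36 without HF replicate 2, that of the thalamus turned to 0.15 and that of white matter to 0.34 after thinning. Avpr1a was called in 1 area with no filter and in 0 otherwise.

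Hypothalamus levels moved with the clustering and with thinning but kept the rank of HF replicate 2. At resolution 0.5 Oxt was 3.62, 20.3 and 2932 CPM in MF replicate 1, MF replicate 2 and HF replicate 2, and Avp was 8.74, 6.56 and 2212 CPM. After thinning Oxt was 3.53, 1.73 and 2094 CPM in MF replicate 2, HF replicate 1 and HF replicate 2, and Avp was 0.705, 20.8 and 1431 CPM. Without its lone spot HF replicate 1 had 0.853 CPM of Oxt and 1.71 CPM of Avp. The mean share of UMIs in the richest spots rose from the top 1% to the top 2% of spots, to 74.4% for Avp and 25.5% for Oxtr, and thinning with the top 1% gave 74.5% and 22.9%.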
